A study of Mus musculus with 144 samples.

Results

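The liver response of C57BL/6J females to an atherogenic diet was described from 6 liver libraries, 3 from females fed the diet and 3 from females fed chow, of 144 libraries in the series. They were chosen by strain, sex and diet alone, and no measured value entered the choice. The atherogenic diet held 30% fat and cholic acid, a bile acid added to raise fat uptake, and the chow held 6% fat. C57BL/6J is the common inbred laboratory strain, with no transgene or deletion named in the labels, and each library came from 1 animal of 11 to 13 weeks. The time on the diet is not given in the sources used here. The series measured 12 inbred strains, both sexes and both diets with 3 animals in each of 48 groups. C57BL/6J males (6 libraries) and females of 9 other strains (54 libraries) served for comparison: SM/J, A/J, 129S1/SvImJ, DBA/2J, BALB/cJ, NZB/BINJ, C3H/HeJ, I/LnJ and MRL/MpJ-Tnfrsf6lpr/J, whose lpr allele disrupts the death receptor Fas. CAST/EiJ and PERA/Ei, harvested after 50 weeks, were left out.

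Liver cells make cholesterol from acetyl units by a long chain of enzymes whose genes are switched on together by the transcription factor SREBP2 when membrane sterols are scarce. Oxidised sterols bind the nuclear receptor LXR, which turns on pumps that move sterols out of the cell and into bile. Bile acids, made from cholesterol by hydroxylases, solubilise dietary fat in the gut and feed back on their own synthesis through the nuclear receptor FXR. In mice, diets rich in fat and cholic acid are widely used to raise blood lipids and to provoke liver inflammation and early scarring.

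Values are deposited log2 intensities, so a difference of 1 is a 2-fold change, and all differences are atherogenic minus chow. Array medians of the 6 libraries lay between 5.03 and 5.08, and precision is set by the number of arrays, not by read depth. Xist, transcribed from the inactive X chromosome, lay between 11.23 and 11.59 in the females and between 4.49 and 4.92 in C57BL/6J males. Nnt, the mitochondrial transhydrogenase mutated in C57BL/6J, averaged 9.13 on chow in this strain (SD 0.13, n = 6) and at least 10.46 in the chow animals of each of the other 9. Alb, encoding the hepatocyte product albumin, lay between 14.46 and 14.58 in all 6 female libraries. The third chow library had the lowest correlation with its own group among the 6 (0.9919, against a median of 0.9948 over 120 libraries), and results that rest on it are given without it.

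Of 18193 genes, 186 passed the threshold for diet in C57BL/6J females (1.02%), with 62 rises (0.341%) and 124 falls (0.682%). The test was limma's moderated test over 120 libraries, with Benjamini-Hochberg adjusted p under 0.05. Among them 15 rises and 36 falls were 2-fold or more, and 15 of these 36 falls belonged to the cholesterol synthesis and uptake list. For 182 of the 186 genes the 3 libraries of one diet did not overlap those of the other. Over all genes the atherogenic libraries lay above the chow libraries in 5.35% and below them in 8.62%. At an unadjusted p under 0.05 there were 1965 genes. The count was 100 without the third chow library, 116 without the second atherogenic library and 56 when the 6 libraries were fitted alone.

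Among 32 gene lists, cholesterol synthesis and uptake had the largest median change in these livers. Of 24 listed genes of cholesterol synthesis and uptake 20 had a usable probe set. Of these 17 fell, 0 rose and 3 did not pass the threshold (85.0% called, against 1.02% of all genes). The median log2 change of the 20 was -1.64, against -0.02 over all 18193 genes. Each library's mean over the 20 lay between 9.43 and 10.45 on chow and between 7.94 and 8.05 on the atherogenic diet, so the groups stood clear of each other. Between 14 and 17 members passed when any 1 of the 6 libraries was left out.

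Hmgcs1 makes the precursor that enters the mevalonate route. It was at 11.23, 12.05 and 13.16 on chow (SD 0.96) and at 9.72, 10.16 and 10.43 on the atherogenic diet (SD 0.35, n = 3 per diet). The log2 change was -2.04 (SE 0.32 from the shared residual spread, limma adjusted p = 1.3e-05). The lowest chow library still exceeded the highest atherogenic library. The mevalonate kinases and decarboxylase that follow fell as well, Pmvk by 1.77 (SE 0.26), Mvd by 1.29 (SE 0.34) and Mvk by 0.97 (SE 0.22). Mvd was uneven, with 6.20, 6.89 and 8.50 on chow (SD 1.18) and 5.79 to 6.05 on the atherogenic diet (SD 0.13). Its call was lost when any of 5 of the 6 libraries was left out. Mvk lost its call without the third chow or the second atherogenic library.

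Idi1 and Fdps build the isoprenoid chain. Idi1 was at 10.22, 10.63 and 11.88 on chow and at 7.23, 7.91 and 7.19 on the atherogenic diet (log2 change -3.47, SE 0.37, limma adjusted p = 7.1e-11), a fall of 11.1-fold. Another probe set of Idi1 went from 9.46 to 4.65 (-4.81, limma adjusted p = 6.7e-12). Fdps was at 10.62, 11.04 and 11.94 on chow and at 7.87, 8.28 and 7.72 on the atherogenic diet, a fall of 9.45-fold (SE 0.40 in log2). In both genes the diets were separated by more than 2 log2 units at the nearest libraries. Fdft1, which joins farnesyl units to squalene, fell by 1.63 (SE 0.24).

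Sqle, the epoxidase that commits squalene to sterols, fell to near the array median. Its level was 8.30, 9.25 and 9.95 on chow and 5.10, 5.16 and 4.93 on the atherogenic diet, a log2 change of -4.10 (SE 0.39, limma adjusted p = 3.6e-13) or 17.2-fold. The 3 atherogenic libraries lay within 0.3 log2 units of each other, where background brightness limits how low a value can read. Lss, which closes the sterol rings, fell by 1.40 (SE 0.25).

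The enzymes that convert lanosterol to cholesterol followed. Cyp51, the lanosterol demethylase, was at 9.37, 9.89 and 10.24 on chow and at 6.32, 6.68 and 6.22 on the atherogenic diet (log2 change -3.43, SE 0.30). Msmo1, a sterol methyl oxidase, was at 10.13, 10.81 and 11.54 on chow and at 7.41, 7.55 and 7.37 on the atherogenic diet (log2 change -3.38, SE 0.33). Nsdhl, which works beside Msmo1 in removing the same methyl groups, was at 10.17, 10.71 and 11.01 on chow and at 8.29, 7.94 and 7.61 on the atherogenic diet (log2 change -2.68, SE 0.29). No atherogenic library of these 3 genes reached a chow library. Dhcr7, the last reductase, fell by 2.28 (SE 0.29), Tm7sf2, another sterol reductase, by 1.64 (SE 0.23), Hsd17b7, a ketosteroid reductase, by 1.41 (SE 0.19) and Sc5d, a desaturase, by 0.75 (SE 0.19). Sc5d lost its call when any 1 of 4 libraries was left out. Stard4, a carrier of cholesterol inside the cell, fell by 1.19 (SE 0.24).

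The remaining 3 members did not pass. Srebf2, which encodes SREBP2, differed by -0.42 (SE 0.12, adjusted p = 0.102) in its brighter probe set, while its dimmer one went from 6.23 to 5.15 and passed (-1.08, limma adjusted p = 3.1e-06). Insig1, the membrane protein that holds SREBP back, differed by -0.81 (SE 0.35, adjusted p = 0.443). Ebp, the sterol isomerase, differed by -0.25 (adjusted p = 0.345). Even so, the 3 atherogenic libraries lay below the 3 chow libraries in 19 of the 20 members, against 8.62% of all genes. The third chow library was the highest of the 6 in 19 of 20, and without it 14 passed and the median was -1.38.

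**Figure D1:**
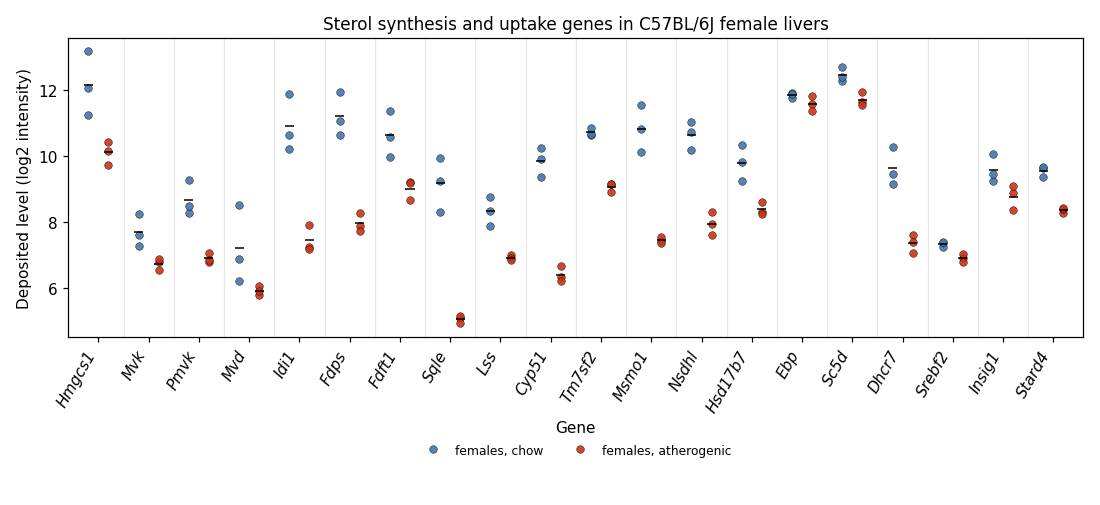
Deposited log2 intensity of the 20 measured cholesterol synthesis and uptake genes in each C57BL/6J female library, in pathway order from left with transport and regulators last. Points are animals (3 per diet) and short bars are means; 17 genes fell, Sqle by 17.2-fold.

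The upstream sequences of 5 of these genes are given because they fell together by 4.12-fold or more and each has 1 promoter entry. They are the 250 bases before the annotated start, from RefSeq on GRCm38.p6, read 5′ to 3′ on the gene's strand. Capitals mark CCAAT on either strand (ATTGG where it lies on the other strand), the box bound by the factor NF-Y, and, in Hmgcs1, TCACNCCAC, a form of the sterol regulatory element bound by SREBP.
Hmgcs1 (chr13:119690101-119690350, plus strand): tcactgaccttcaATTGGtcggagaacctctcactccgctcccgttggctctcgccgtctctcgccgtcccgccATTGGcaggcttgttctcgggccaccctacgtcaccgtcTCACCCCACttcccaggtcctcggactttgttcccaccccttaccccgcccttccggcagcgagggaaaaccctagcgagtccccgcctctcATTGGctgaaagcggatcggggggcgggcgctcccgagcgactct
Idi1 (chr13:8885356-8885605, plus strand): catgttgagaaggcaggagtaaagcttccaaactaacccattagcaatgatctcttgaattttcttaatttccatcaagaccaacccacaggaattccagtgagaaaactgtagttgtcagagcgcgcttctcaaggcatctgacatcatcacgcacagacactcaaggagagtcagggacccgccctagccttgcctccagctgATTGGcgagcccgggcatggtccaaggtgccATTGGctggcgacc
Cyp51 (chr5:4104698-4104947, minus strand): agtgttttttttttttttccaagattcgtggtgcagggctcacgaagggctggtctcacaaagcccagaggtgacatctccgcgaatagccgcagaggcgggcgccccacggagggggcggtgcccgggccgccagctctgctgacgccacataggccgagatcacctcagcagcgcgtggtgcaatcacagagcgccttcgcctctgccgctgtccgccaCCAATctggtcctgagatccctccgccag
Msmo1 (chr8:64733579-64733828, minus strand): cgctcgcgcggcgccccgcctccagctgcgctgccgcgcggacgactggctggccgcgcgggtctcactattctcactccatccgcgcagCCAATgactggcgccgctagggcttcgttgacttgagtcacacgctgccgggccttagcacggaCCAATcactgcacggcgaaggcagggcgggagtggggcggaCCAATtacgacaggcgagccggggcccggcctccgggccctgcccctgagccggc
Nsdhl (chrX:72918271-72918520, plus strand): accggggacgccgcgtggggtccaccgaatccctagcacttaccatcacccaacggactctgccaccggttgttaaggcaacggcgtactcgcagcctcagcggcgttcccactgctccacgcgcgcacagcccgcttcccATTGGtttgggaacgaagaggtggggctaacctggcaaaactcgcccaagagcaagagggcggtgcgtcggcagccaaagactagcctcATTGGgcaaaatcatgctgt

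In windows from 250 bases before to 50 after the start, CCAAT was found on 1 or the other strand in 16 of the 16 listed genes with an entry, against 41.1% of 27025 genes. Among genes with a single entry it was in 14 of 14, against 38.2% of 22862. TCACNCCAC was found in 1 of 16, Hmgcs1, against 1.44% of all genes, and the textbook form, with C at the open base and A before the first T, in 0 of 16, against 0.0999%. CCAAT was also in 6 of the 8 listed LXR target genes with an entry (75%), and in 4 of 5 with a single entry (80%). These matches describe letters in a short window and were not tested as binding sites.

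Bile acid synthesis changed chiefly at 1 enzyme. Cyp8b1, the sterol hydroxylase that directs synthesis to cholic acid, was at 10.89, 11.11 and 11.24 on chow and at 7.36, 7.29 and 5.81 on the atherogenic diet. The change of -4.26 (SE 0.37, limma adjusted p = 1.8e-14) was a fall of 19.2-fold. Of the 13 listed synthesis genes 1 fell, 2 rose and 10 did not pass, with a median of -0.03. The called share was 23.1%, against 1.02% of all genes. The 2 rises were small: Cyp2c70, which makes the muricholic acids of mice, by 0.58 (SE 0.11), and Scp2, a sterol carrier, by 0.25 (SE 0.05).

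Cyp7a1, the rate-limiting hydroxylase, was scattered. It stood at 10.52, 11.03 and 9.88 on chow and at 11.19, 8.18 and 7.92 on the atherogenic diet (log2 change -1.38, SE 0.60, adjusted p = 0.442), so that the first atherogenic library lay above every chow library and the other two below. Cyp27a1 and Cyp7b1, of the alternative route, differed by -0.08 (SE 0.10) and -0.14 (SE 0.25). None of 18 genes of bile acid sensing and transport passed in limma, where 1.02% of all genes did. Their differences ran from -0.43 to 0.79. Nr0b2, the repressor induced through FXR, was at 8.86, 9.57 and 9.16 on chow and at 9.65, 10.40 and 9.91 on the atherogenic diet (0.79, SE 0.32, adjusted p = 0.392). Abcb11, the bile salt export pump, differed by 0.25 (SE 0.13) and Slc10a1, the bile salt uptake carrier, by -0.19 (SE 0.10).

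Targets of LXR rose in part. Of 11 listed genes 6 rose, 0 fell and 5 did not pass, with a median of 0.81. The called share was 54.5%, against 1.02% of all genes. The library means over the 11 lay between 9.90 and 10.05 on chow and between 10.69 and 10.82 on the atherogenic diet. Abcg5 and Abcg8, the 2 parts of the pump that secretes sterols into bile, rose 3.16-fold and 2.52-fold. Abcg5 was at 10.34, 10.46 and 10.13 on chow and at 12.02, 11.99 and 11.90 on the atherogenic diet (log2 change 1.66, SE 0.15, limma adjusted p = 1.8e-14). Abcg8 was at 9.31, 9.34 and 9.26 on chow and at 10.50, 10.78 and 10.64 on the atherogenic diet (1.33, SE 0.17). Within each diet the 3 animals differed little, and the diets were more than 1 log2 unit apart.

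Abca1 and Abcg1, which load cholesterol onto high-density lipoprotein, rose by 0.56 (SE 0.10) and 1.01 (SE 0.20). Lpl, the lipase that hydrolyses lipoprotein triglycerides, was at 8.81, 9.06 and 9.32 on chow and at 10.46, 10.29 and 11.26 on the atherogenic diet (1.61, SE 0.27). Srebf1, which encodes the factor that drives fatty acid synthesis, rose by 1.08 (SE 0.24), a call lost without the first chow library. Scd1, the stearoyl desaturase, had atherogenic libraries all above the chow libraries (14.10 to 14.15 against 13.11 to 13.52) but did not pass (0.81, SE 0.25, adjusted p = 0.127). That probe set reads near the highest value on any array, 14.74, and another probe set of the gene rose from 10.11 to 12.22 (2.11, limma adjusted p = 0.00153). Nr1h3, encoding LXR alpha itself, differed by -0.08. A direct repeat of AGGTCA with 4 bases between the copies, a form of the LXR element, was in 0 of the 8 listed genes with a promoter entry and in 0.0148% of all genes.

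Genes that make fatty acids had no shared direction, with 8 positive and 10 negative estimates. Of 18 listed 2 rose and 1 fell (16.7%, against 1.02% of all genes), with a median of -0.03. Scd2, a desaturase that is low in adult liver, was at 5.20, 5.01 and 4.66 on chow and at 6.26, 5.95 and 6.47 on the atherogenic diet (1.27, SE 0.22). Mlxipl, encoding the glucose-sensing factor ChREBP, rose by 0.54 (SE 0.14), a call lost when any 1 of 4 libraries was left out. Acss2, which makes acetyl-CoA from acetate, fell by 1.31 (SE 0.27), and lost its call without the third chow or the third atherogenic library. Fasn, the fatty acid synthase, was at 9.40, 9.97 and 10.32 on chow and at 9.54, 9.97 and 9.72 on the atherogenic diet. None of 19 genes of fatty acid oxidation passed in limma (median -0.08), where 1.02% of all genes did. Of the 19, Cpt1a, the mitochondrial gate of oxidation, differed by -0.10 (SE 0.19), and Ppara, the regulator of the group, by 0.24 (SE 0.18).

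Of 19 genes listed for lipid droplets and storage 2 rose (Apoa4 and Fabp2) and 1 fell (Fitm1). That was 15.8%, against 1.02% of all genes, and the median was -0.06. Apoa4, an apolipoprotein of triglyceride-rich particles, was at 9.91, 9.71 and 10.23 on chow and at 11.40, 11.83 and 11.42 on the atherogenic diet (1.60, SE 0.23). Fabp2, the intestinal-type fatty acid binding protein, was at 10.64, 10.52 and 10.97 on chow and at 11.88, 12.31 and 12.31 on the atherogenic diet (1.45, SE 0.15). In neither gene did the diets overlap. Fitm1, a membrane protein of droplet formation, fell by 0.91 (SE 0.18), a call lost without the second atherogenic library. Plin2, which coats lipid droplets, differed by -0.21 (SE 0.19) and Cd36, a fatty acid translocase, by 0.13 (SE 0.23).

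In the apolipoprotein list 3 of 16 rose and 0 fell (18.8%, against 1.02% of all genes). Apoc2, the activator of Lpl, rose by 0.80 (SE 0.11), Scarb1, the receptor for high-density lipoprotein, by 0.71 (SE 0.15) and Apoc1 by 0.20 (SE 0.04). Scarb1 lost its call without the third chow or the third atherogenic library, and Apoc1 without the third chow library. Apoa1 and Apoe, 2 of the main structural apolipoproteins, differed by -0.04 (SE 0.04) and 0.10 (SE 0.03) and did not pass.

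**Figure D2:**
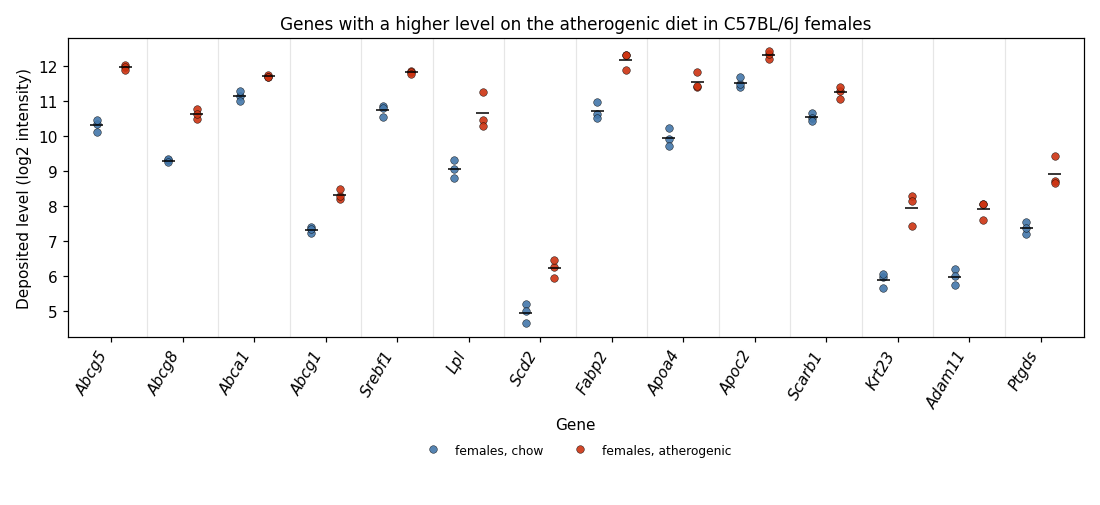
Deposited log2 intensity of 14 genes that rose, in each C57BL/6J female library: LXR targets and lipid genes, then 3 further genes with large rises. Points are animals (3 per diet) and short bars are means. The diets do not overlap in any of the 14 genes, with Abcg5 up 3.16-fold and Krt23 up 4.14-fold.

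With 1 probe set per gene, the one brightest over the 120 libraries, Krt23, a keratin, rose most. It was at 5.98, 5.67 and 6.06 on chow and at 8.29, 7.43 and 8.14 on the atherogenic diet (2.05, SE 0.33, limma adjusted p = 2.0e-05), or 4.14-fold. Krt23 was on the list of bile duct (cholangiocyte) markers, of which it alone passed among 9 (11.1%, against 1.02% of all genes). The duct keratins Krt7 and Krt19 differed by 0.06 and -0.05, and Epcam, a surface protein of duct cells, by 0.18. Prom1, a surface protein of duct and progenitor cells, was at 6.83, 6.08 and 5.65 on chow and at 8.01, 7.62 and 7.02 on the atherogenic diet (1.36, SE 0.40, adjusted p = 0.0927). Krt23 and Prom1 were thus the 2 of 9 duct markers above chow in every atherogenic library, against 5.35% of all genes. Adam11, a member of the disintegrin family, was at 5.76, 6.22 and 6.00 on chow and at 8.07, 7.62 and 8.08 on the atherogenic diet (1.93, SE 0.18). Both genes separated the diets by more than 1 log2 unit.

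Ptgds, a prostaglandin D synthase, rose by 1.55 (SE 0.32), Lepr, the leptin receptor, by 1.39 (SE 0.35; 2.17 in another probe set, limma adjusted p = 0.042) and Sult1e1, the oestrogen sulfotransferase, by 1.35 (SE 0.29). Sult1e1 rested on 2 animals, at 5.95, 5.90 and 4.22 on the atherogenic diet against 3.92 to 4.10 on chow. Its call was lost without either of those 2, that of Lepr when any 1 of 3 libraries was left out and that of Ptgds without the third atherogenic library. Hnmt, which methylates histamine, rose by 1.05 (SE 0.20), Dio3os, a non-coding RNA, by 1.08 (SE 0.18), and B4galt5, a galactosyltransferase of glycolipid synthesis, by 0.95 (SE 0.16). Dipk2a rose by 0.99 (SE 0.18), Fmo5, a flavin monooxygenase, by 0.93 (SE 0.17) and H1f2, a linker histone, by 0.86 (SE 0.22). The calls of Hnmt and Dipk2a were lost without the third chow library, and that of H1f2 when any 1 of 5 libraries was left out.

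Enho, which encodes the secreted peptide adropin, fell outside sterol and bile acid synthesis. Its level was 9.10, 9.11 and 8.96 on chow and 6.50, 7.11 and 6.82 on the atherogenic diet (-2.25, SE 0.29, limma adjusted p = 4.4e-08), or 4.75-fold. Tlcd2, a membrane protein, was at 10.78, 10.82 and 10.92 on chow and at 9.17, 9.08 and 9.08 on the atherogenic diet (-1.73, SE 0.20). Rdh11, a retinal reductase, fell by 1.91 (SE 0.30). In all 3 the diets lay well apart.

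Genes listed as higher in female than in male liver changed in both directions. Of 15 listed 2 rose (Lepr and Sult1e1) and 3 fell, or 33.3%, against 1.02% of all genes. Sult3a1, a sulfotransferase, was at 11.15, 11.41 and 11.57 on chow and at 8.87, 10.30 and 8.69 on the atherogenic diet (-2.09, SE 0.40), against 3.63 to 4.76 in all 6 C57BL/6J males. Abcd2, a peroxisomal carrier of very long fatty acids, fell 2.83-fold (SE 0.27 in log2) and Atp6v0d2, a subunit of the vacuolar proton pump, by 1.43 (SE 0.31), the latter a call lost without the first chow or the second atherogenic library. Sult2a2, another sulfotransferase and not on that list, fell by 1.64 (SE 0.40), a call lost when any 1 of 3 libraries was left out. Among 15 male-biased genes 1 fell (6.67%), the complement gene C8a (-0.74, SE 0.18), and lost its call when any 1 of 4 libraries was left out. In the list of 19 cytochrome P450 and flavin monooxygenase genes 1 rose (Fmo5) and 1 fell (10.5%). The fall was that of Cyp1a2, an oxidase of drugs and aromatic amines (-0.74, SE 0.15).

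Over 8 lists of inflammation, interferon, matrix, immune cell and proliferation genes, 156 genes were measured, of which 1 rose and 4 fell in females (3.21%, against 1.02% of all genes). These 5 calls were acute phase, macrophage and lymphocyte genes. Of the 156 estimates 96 were positive, against 7837 of all 18193 genes. In every atherogenic library 36 of the 156 lay above and 16 below chow, against 5.35% and 8.62% of all genes. The library means over the 156 lay between 7.35 and 7.44 on chow and between 7.38 and 7.56 on the atherogenic diet, so the 2 groups overlapped. Single lists within this pool differed. Interferon means lay higher on the atherogenic diet, at 7.56 to 8.01 against 7.45 to 7.54 on chow. Neutrophil means lay lower, at 5.18 to 5.22 against 5.23 to 5.45. None of 21 chemokine and inflammation genes, none of 20 interferon genes, none of 22 matrix and stellate cell genes and none of 23 proliferation genes passed in limma. Their medians were 0.10, 0.31, 0.30 and -0.02. Some members were nonetheless higher in every atherogenic library, 7 of 20 interferon genes, 8 of 22 matrix genes and 12 of 22 macrophage markers, against 5.35% of all genes. Lower in every atherogenic library were 0, 0 and 3 members of the same lists. Estimates were positive in 18 of 20 interferon genes, 21 of 22 matrix genes and 18 of 22 macrophage markers. Col3a1, a collagen of scar tissue, was at 8.94, 8.43 and 9.19 on chow and at 9.93, 9.29 and 10.22 on the atherogenic diet (0.97, SE 0.34, adjusted p = 0.251).

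Acute phase genes, which hepatocytes turn on during inflammation, showed 0 rises and 2 falls among 25 (8.0%, against 1.02% of all genes). Their median was -0.09. The 2 falls, Apcs (-0.72, SE 0.19) and Itih3 (-0.40, SE 0.11), were lost when any 1 of the 6 libraries was left out. Saa1, serum amyloid A, was at 9.74, 10.41 and 11.40 on chow and at 11.06, 10.16 and 9.63 on the atherogenic diet, and the diets overlapped fully. Hamp, the iron hormone hepcidin, differed by -0.24 (SE 0.60, beside SDs of 0.17 on chow and 0.16 on the atherogenic diet).

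Among 22 measured macrophage markers 1 rose, Cd5l, a protein secreted by liver macrophages (0.85, SE 0.22), and 1 fell, Cd163, the receptor that clears haemoglobin (-1.52, SE 0.34). The called share was 9.09%, against 1.02% of all genes. Library means over the 22 lay between 7.76 and 7.78 on chow and between 7.96 and 8.09 on the atherogenic diet. The call of Cd5l was lost when any 1 library was left out, and that of Cd163 without the first chow or the third atherogenic library. Lgals3, a galectin of activated macrophages, was at 7.56, 7.89 and 7.93 on chow and at 9.14, 8.86 and 9.12 on the atherogenic diet. It was apart in every library but short of the threshold (1.25, SE 0.35, limma adjusted p = 0.0778). That SE stands beside SDs of 0.20 on chow and 0.16 on the atherogenic diet. Cd68 differed by 0.42 (SE 0.26), Adgre1 by 0.38 (SE 0.25) and Clec4f, a Kupffer cell receptor, by 0.10 (SE 0.19). In whole liver, more cells of a type and more RNA per cell cannot be told apart.

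Of the remaining cell types, Cd79b of B cells fell (-0.54, SE 0.13) among 13 lymphocyte markers (7.69%), a call lost when any 1 of 4 libraries was left out. None of 11 neutrophil, 13 endothelial, 15 hepatocyte, 3 erythroid, 7 pancreas and 3 adipocyte markers passed in limma. Nor did any of 19 NRF2 target, 20 ER stress, 12 glucose, 12 amino acid and urea cycle, 23 oxidative phosphorylation and 4 sex chromosome genes. With 1.02% of all genes called, lists of this length can hold 0 calls without differing from all genes. Nnt rose by 0.39 (SE 0.10), a call lost when any 1 of 4 libraries was left out. The hepatocyte means lay between 12.36 and 12.51 on chow and between 12.32 and 12.58 on the atherogenic diet.

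The next question was whether males of the strain responded alike. In C57BL/6J males 1853 genes passed (10.2%), 1220 upward (6.71%) and 633 downward (3.48%). The 2 comparisons share no library. Of the 186 genes called in females 95 (51.1%) were called in males in the same direction, 0 in the opposite direction and 91 were not called there. The 95 made up 5.13% of the male calls. The difference between the sexes passed for 238 genes (1.31%), 195 changing more positively in males (1.07%) and 43 in females (0.236%), and 202 of them were called in males but not in females.

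The number of such genes depended on single animals. It was 59 without the second atherogenic male, 560 without the third atherogenic male, 55 without the second atherogenic female and 13 when the 12 C57BL/6J libraries were fitted alone. The second atherogenic male was the highest of its group for Lcn2, Orm2, Ubd and Gbp8 and not for S100a8 and S100a9, and what set single animals apart was not tested.

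A difference between the sexes was not found in the sterol genes. In males 16 of 20 sterol genes fell, with a median of -1.08, and 7 of 11 LXR targets rose, with a median of 0.70. Over all genes 3.48% fell and 6.71% rose in males. The difference between the sexes passed for 0 of the 20 sterol genes, against 1.31% of all genes. The female estimate was the more negative in 18 of 20. Sqle fell by 4.10 in females and 2.93 in males (female minus male -1.17, SE 0.55, adjusted p = 0.426), and Cyp8b1 by 4.26 and 3.73 (-0.53, SE 0.52, adjusted p = 0.816). Among LXR targets 1 differed, Abcg1, with 1.01 in females and 2.13 in males (-1.12, SE 0.28, adjusted p = 0.0255). Apoa4 (1.60 against 2.87), Apoc2 (0.80 against 1.46) and Scd2 (1.27 against 2.71) also rose less in females than in males, all past the threshold for the difference. Mlxipl rose in females and was at -0.37 in males, a difference of 0.92 (SE 0.20, adjusted p = 0.0107).

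Inflammation, interferon and macrophage genes rose widely in males. Over the 8 lists together 92 of 156 rose and 0 fell in males (59.0% called). Over all genes 6.71% rose and 3.48% fell in males. The median over the 156 was 0.82 in males against 0.09 in females. The library means over the 156 lay between 7.01 and 7.09 in chow males and between 7.74 and 8.47 in atherogenic males. Chow males thus lay below chow females, and atherogenic males above atherogenic females. The test of the difference itself passed for 19 of the 156, all more positive in males, as were 1.07% of all genes. They included 4 of 25 acute phase genes, 6 of 20 interferon genes and 4 of 22 macrophage markers, and for matrix and proliferation genes 0 passed. In matrix genes 17 of 22 rose in males against 0 in females, but a difference between the sexes passed in none of them by limma, so it was not shown. A gene on 2 lists counts once in the 156.

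**Figure D3:**
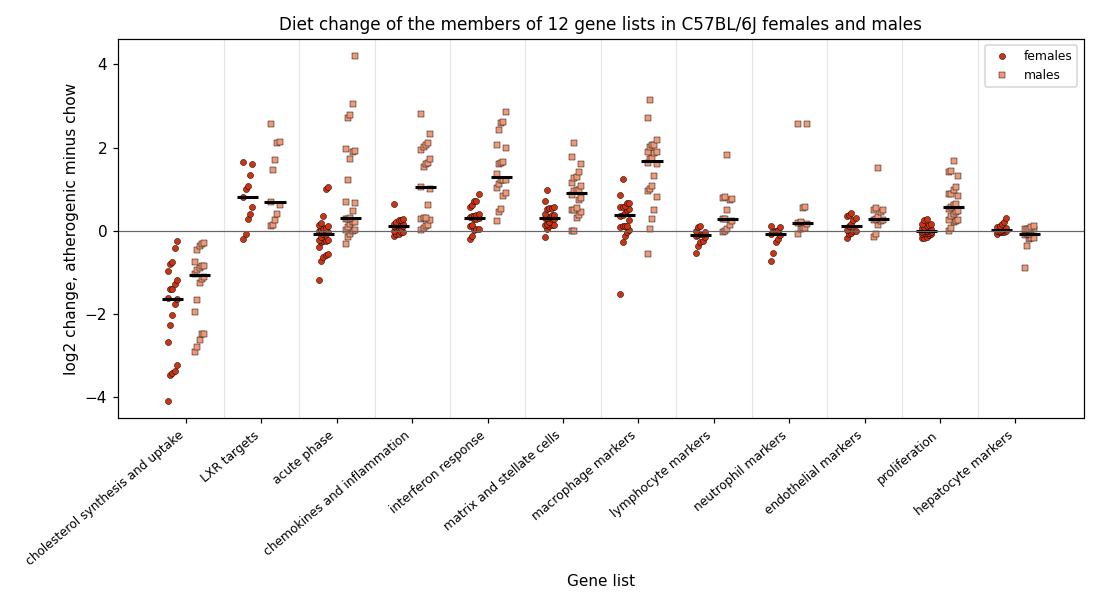
Diet change (log2, atherogenic minus chow) of each measured member of 12 gene lists in C57BL/6J females and males, with bars at the list medians. The sterol lists lie below 0 in both sexes (medians -1.64 and -1.08), and the macrophage list lies at 0.37 in females and 1.68 in males.

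The secreted proteins Lcn2 and Orm2 had the largest differences in diet change among the genes named for the sexes. Lcn2, which binds bacterial iron carriers, was at 8.73, 9.06 and 8.43 in chow females and at 9.08, 7.80 and 7.63 in atherogenic females. In males it was at 5.52, 5.73 and 5.83 on chow and at 10.22, 11.61 and 7.85 on the atherogenic diet. The female change of -0.58 (SE 0.67) and the male change of 4.20 differed by -4.78 (SE 0.94, limma adjusted p = 0.00317). Chow females were higher than chow males by more than 2 log2 units at the nearest animals. Orm2, an acute phase glycoprotein, was measured at 9.53, 10.21 and 9.79 in chow females, 8.97, 8.75 and 8.28 in atherogenic females, 6.90 to 7.20 in chow males and 8.74 to 11.72 in atherogenic males. Its difference between the sexes was -4.23 (SE 0.77, adjusted p = 0.00109). For the secreted Saa1, Saa2, Saa3 and Hamp the difference did not pass (limma adjusted p from 0.075 to 0.988). It passed for 4 of 25 acute phase genes.

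S100a8 and S100a9, the paired calcium-binding proteins of neutrophils, differed by -3.30 (SE 0.63) and -3.09 (SE 0.60). S100a8 was at 5.91, 7.0 and 6.03 in chow females, at 5.87, 5.23 and 5.65 in atherogenic females, at 5.48 to 5.98 in chow males and at 7.67 to 8.74 in atherogenic males. Only the atherogenic males stood apart. Ubd, a ubiquitin-like protein induced by interferon, and Gbp8, a guanylate-binding protein, differed by -3.67 (SE 1.00) and -2.82 (SE 0.68). Ubd rested on the second atherogenic male (8.59, 11.13 and 5.25 in the 3), and its call was lost when any 1 of 11 of the 12 libraries was left out, that of Gbp8 when any 1 of 5 was left out. Lgals3, Cd68 and Vcam1, an adhesion molecule, also changed more positively in males, with female minus male differences of -1.89, -1.34 and -1.74.

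The 6 genes named for a more positive change in females all fell in males. Csad, an enzyme of taurine synthesis, was at 9.14, 9.22 and 11.05 in chow females, at 7.72, 9.54 and 9.32 in atherogenic females, at 11.52 to 11.94 in chow males and at 7.36 to 8.42 in atherogenic males. The change was -0.94 (SE 0.46, adjusted p = 0.533) in females and -3.92 in males, a difference of 2.97 (SE 0.64, adjusted p = 0.009). Dnase2a, a lysosomal nuclease, differed by 2.58 (SE 0.56), and in females it too was highest in the third chow and lowest in the first atherogenic library. The calls of both were lost without the second atherogenic female. Nlrp12, Sdr9c7, Asns and Nat8 differed by 1.79, 1.52, 1.47 and 1.37. Asns, the asparagine synthetase, was at 5.08 to 5.37 in all 6 females and fell from 6.44 or more to 5.35 or less in males. In 8 of the 12 genes named for the sexes the call held whichever of the 12 C57BL/6J libraries was left out. With those 12 libraries fitted alone 9 of the 12 genes lost it (limma adjusted p from 0.0736 to 0.5), and S100a8, S100a9 and Asns kept it.

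**Figure D4:**
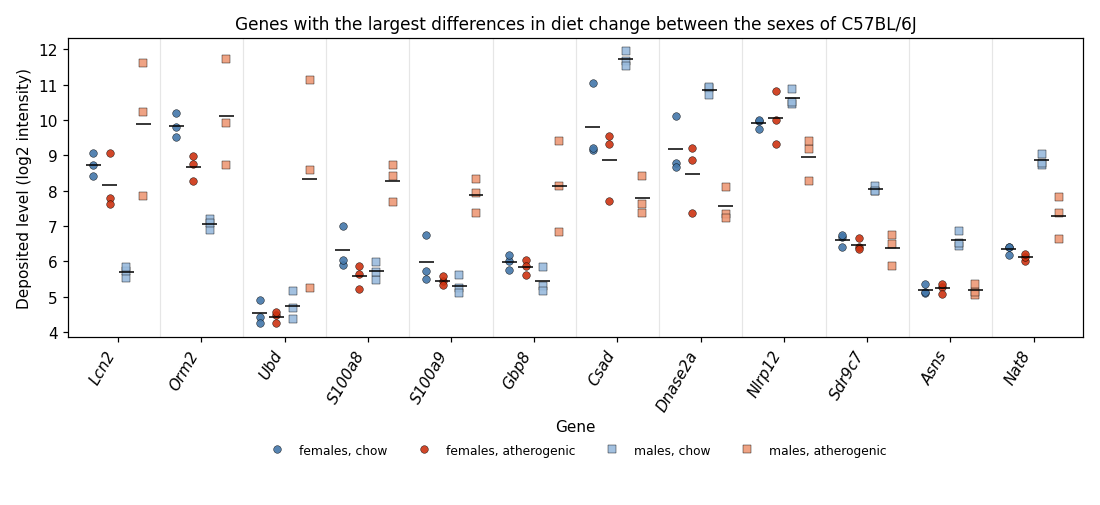
Deposited log2 intensity of the 6 genes with the most negative and the 6 with the most positive difference in diet change (females minus males) in C57BL/6J. Points are animals (3 per group), circles females and squares males, and short bars are means. Lcn2 and Orm2 are above 7.5 in all females and below 7.5 in chow males.

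Females of the other 9 strains shared most of the response. Of the 186 genes 152 (81.7%) were called in the same direction in the mean change of those strains, 1 in the opposite direction and 33 were not called. In that mean 5828 of all 18193 genes (32%) were called in either direction, of which the 152 made up 2.61%. It rests on 54 libraries and so detects smaller changes. Taken 1 strain at a time, with 6 libraries each as here, the other strains had from 86 to 4068 called genes. The difference between C57BL/6J females and that mean passed for 12 genes (0.066%), 8 of them more negative and 4 more positive in C57BL/6J.

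None of the 20 sterol genes differed from the other strains by the test in limma (0.066% of all genes did), and all 20 fell in the mean of those strains. Sqle changed by -4.10 here and by -4.99 to -0.88 in the others. Abcg5 changed by 1.66 here and by 1.16 to 2.01 in the others.

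Cyp8b1 did differ. Its change of -4.26 was the most negative of the 10 strains, with -0.96 in BALB/cJ at the other end, and lay -2.29 (limma adjusted p = 0.00102) from the mean of the other 9. I/LnJ females were close behind at -4.23, so the fall was not particular to C57BL/6J. Its call held whichever of the 6 libraries was left out. On chow, C57BL/6J females had 11.08, within the other strains' range of 10.11 to 11.64.

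Pltp, the phospholipid transfer protein and an LXR target, changed by -0.20 here and by 0.09 to 1.67 in the others (difference -1.16, adjusted p = 0.00125). It was at 10.07, 9.93 and 10.99 on chow and at 9.94, 10.08 and 10.37 on the atherogenic diet, and the call was lost without the third chow library (adjusted p = 0.138). Mmp12, a macrophage elastase, changed by 0.67 here and by 0.11 to 6.03 in the others (difference -1.72), and Atp6v0d2 by -1.43 against -1.81 to 1.45 (difference -1.45). Both fell inside the range of the other strains, and their calls were lost when any 1 of 5 (Mmp12) or 4 (Atp6v0d2) libraries was left out. Coro1c, an actin-binding protein, and Atp6v1h, another subunit of the proton pump, differed by -0.72 and -0.58, each below every other strain, and their calls were lost when any 1 of 4 libraries (Coro1c) or the third chow library (Atp6v1h) was left out.

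Cyp3a16, a cytochrome P450 of the female liver, was at 7.24, 3.95 and 3.68 on chow and at 6.41, 7.26 and 4.70 on the atherogenic diet. The diets overlapped (1.17, SE 0.52, adjusted p = 0.472), while it changed by -4.08 to 0.14 in the others, and the difference of 2.83 was lost when any 1 of 4 libraries was left out. Cyp2f2, an oxidase of the airway and liver, was at 12.94 to 13.08 on chow and at 13.07 to 13.20 on the atherogenic diet (0.15) against -1.70 to -0.08 in the others (difference 0.80).

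The remaining 4 changed in C57BL/6J females and hardly in any other strain. Tpm2, a tropomyosin of muscle fibres, was at 7.47, 7.55 and 7.46 on chow and at 8.05, 7.85 and 8.61 on the atherogenic diet (0.67, SE 0.12, adjusted p = 1.1e-04), against -0.11 to 0.11 in the others. On chow it averaged 7.49 here and 5.90 to 6.42 in the others, and the call was lost without the third atherogenic library. Gm7969, a predicted gene, was at 7.71, 7.77 and 7.82 on chow and at 6.91, 7.28 and 7.43 on the atherogenic diet (-0.56, SE 0.08). On chow it averaged 7.77 in C57BL/6J females and 3.24 to 3.37 in the others, so that a fall there could hardly be seen on this array. It also fell in C57BL/6J males, by 1.02. Tarbp2, which serves small RNA processing, changed by -0.42 (SE 0.09) and 2610035D17Rik by 0.42 (SE 0.09), from chow levels of 6.05 and 4.98 that lay near those of the other strains. With the mean of a gene's probe sets in place of 1, the calls of Coro1c, Atp6v1h, Tarbp2 and 2610035D17Rik were lost. Among the 12 genes the calls of Cyp8b1 and Gm7969 held whichever of the 6 libraries was left out. With the 60 female libraries fitted alone the calls of Atp6v0d2, Cyp2f2 and Cyp3a16 were lost (limma adjusted p from 0.117 to 0.14). Without the SM/J males in the fit those of Mmp12 and Atp6v0d2 were lost (limma adjusted p = 0.052 each).

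**Figure D5:**
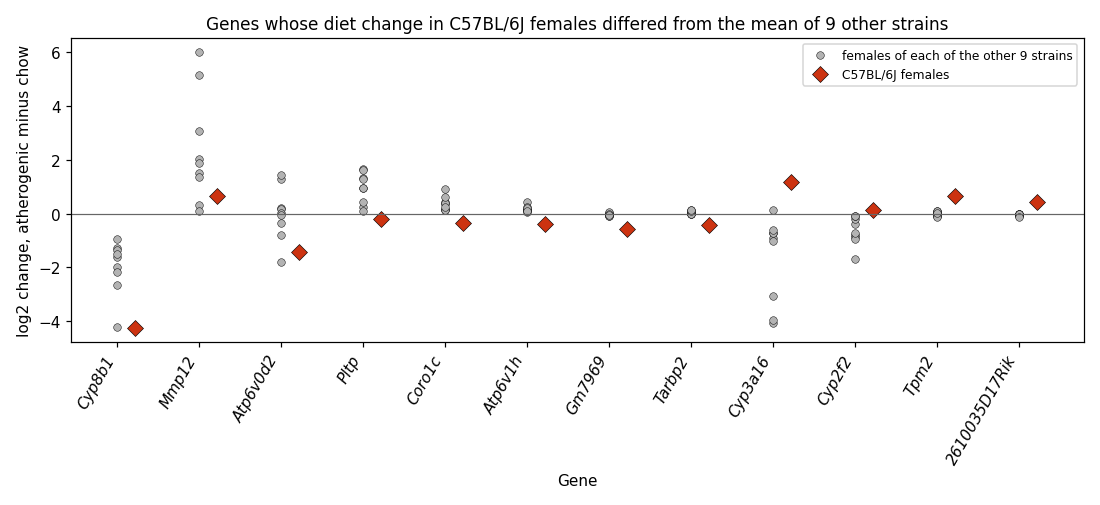
Diet change (log2, atherogenic minus chow) in females of C57BL/6J (diamonds, set slightly to the right) and of each of the other 9 strains (circles) for the 12 genes whose change differed from the mean of the other 9. Each point rests on 3 animals per diet. Cyp8b1 is at -4.26 in C57BL/6J and at -4.23 in I/LnJ.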

How the data were processed

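Liver total RNA was copied from poly(A) tails with a T7 primer and amplified with biotin, per the labels' protocols. The authors made the deposited values with RMA, per the submitters' processing notes; its version and array set are not given in the sources used here. Each deposited value is the log2 intensity of a probe set, as read from their range of 2.9 to 14.74. Scan dates and batches were not given in the labels.

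All 45037 non-control probe sets entered 1 limma fit (3.58.1, R 4.3.3, with the data.table package at 1.17.8) over the 120 libraries of 10 strains, with 40 group means and 80 residual degrees of freedom. Contrasts were tested with eBayes, and p-values adjusted over all probe sets. A gene took its probe set with the highest mean over the 120 libraries (18193 genes, 9010 with several probe sets). Names came from the platform annotation, updated through RefSeq (GRCm38.p6). Of the probe sets 34945 had 1 symbol, 932 had several and 9160 had none, and the last 2 kinds were tested but not named.

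Named were the 20 largest rises and 15 largest falls with separated libraries, the 6 largest each way between the sexes, up to 8 each way between strains, and up to 5 called members and the defining members of each of 32 lists. Other list members were named after their values were seen. The members and lists were chosen with earlier results of these data known. Listed genes lacking a usable probe set are not analysed here. Lists are described by counts and medians, with no set test. Promoter motifs were searched on both strands. The fit and the contrast for diet in C57BL/6J females were tried on simulated data with known changes. The other steps were not. Replicate numbers were not used to pair the libraries in the main fit, because the labels do not say what they mark. Deviations of same-numbered libraries correlated at 0.094, 0.012 and 0.154, and those of differently numbered libraries at -0.13 to 0.08. These values cannot show whether a number marks a shared litter, day or batch. Alternatives were a replicate block, fewer libraries, other scalings and filters, other choices of probe set, array weights, a stricter threshold and leaving out single libraries.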

Additional observations from a re-analysis of the deposited data

Results flagged for a closer look

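The diet change differed between C57BL/6J females and males in 238 genes, and between C57BL/6J females and the mean of the females of the other 9 strains in 12, each by limma's test of the difference itself. Every gene below passed that test, and the causes were not tested.

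With a more negative change in females than in males (female minus male, log2) stood Lcn2 at -4.78, Orm2 at -4.23, Ubd at -3.67, S100a8 at -3.30, S100a9 at -3.09, Gbp8 at -2.82 and Sult3a1 at -2.75. Smaller differences of this direction were those of Lgals3 at -1.89, Vcam1 at -1.74, Atp6v0d2 at -1.72, Scd2 at -1.44, Cd68 at -1.34, Apoa4 at -1.27, Abcg1 at -1.12, Cd79b at -0.83, Apoc2 at -0.67 and Tarbp2 at -0.47. With a more positive change in females stood Csad at 2.97, Dnase2a at 2.58, Nlrp12 at 1.79, Sdr9c7 at 1.52, Asns at 1.47, Nat8 at 1.37, Adam11 at 1.03, Dio3os at 0.93, Mlxipl at 0.92, Tpm2 at 0.74, 2610035D17Rik at 0.53 and Gm7969 at 0.45.

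Against the females of the other 9 strains (C57BL/6J minus the others, log2) the change was more negative for Cyp8b1 at -2.29, Mmp12 at -1.72, Atp6v0d2 at -1.45, Pltp at -1.16, Coro1c at -0.72, Atp6v1h at -0.58, Gm7969 at -0.53 and Tarbp2 at -0.47. It was more positive for Cyp3a16 at 2.83, Cyp2f2 at 0.80, Tpm2 at 0.67 and 2610035D17Rik at 0.46.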

How the results depend on the processing

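The number of genes called for diet in C57BL/6J females (186) was 56 with the 6 libraries fitted alone and 99 at an adjusted p under 0.01, and ranged from 100 to 205 when 1 library was left out. The number called for diet by sex (238) was 13 with the 12 C57BL/6J libraries alone, 497 with array weights and 48 at an adjusted p under 0.01, and ranged from 55 to 560 when 1 library was left out. The number called against the other strains (12) was 27 with the 60 female libraries alone, 22 with array weights and 7 at an adjusted p under 0.01, and ranged from 7 to 22 when 1 library was left out. All other settings left the 3 counts within 1.5 times. The fit with the replicate number as a block gave 173, 265 and 13. The fit without the SM/J males gave 177, 272 and 13. Leaving out each C57BL/6J male library was chosen after seeing the data.

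Genes that turned direction were all uncalled and near 0. Alb turned to 0.10 with quantile normalization and to 0.00 with arrays centred on their median, Saa2 to 0.01 with quantile normalization and to 0.24 with array weights, and Tnf to 0.03 with array weights. Over the fits without 1 library the ranges were -0.03 to 0.02 for Alb, -0.51 to 0.49 for Saa2, -0.62 to 0.21 for Saa1, -0.13 to 0.09 for Tnf, -0.40 to 0.06 for Fasn, -0.07 to 0.00 for Apoa1, -0.15 to 0.03 for Xist, -0.02 to 0.23 for Ccl2, -0.09 to 0.21 for Cyp4a14 and -0.13 to 0.35 for Cd36. The causes were not tested. Of 61 genes named and called for diet in females 37 kept the call whichever of the 6 libraries was left out. For 37 of the named genes that were called for diet in females the array held 68 other probe sets. Of these 60 had the same sign and 0 were called in the opposite direction. Named genes not called for diet in females were left out of this count, and some, such as Cpt1a and Acta2, had other probe sets of opposite sign. Signal near background limits Sqle and other genes of low level.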

Other observations

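Cyp4a14, a fatty acid hydroxylase driven by PPARA, was at 12.54 to 12.76 in chow females and 12.37 to 12.96 in atherogenic females (log2 change 0.05), while in males it fell by 3.07, from 12.71 or more to 10.39 or less. The difference between the sexes did not pass (3.12, SE 0.90, limma adjusted p = 0.0691). Cyp7b1, the oxysterol hydroxylase of the alternative bile acid route, had a like pattern, with -0.14 in females and -1.41 in males (difference 1.26, SE 0.35, adjusted p = 0.0513).

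Elovl3, which lengthens very long fatty acids and is higher in male liver, had atherogenic females (6.52, 7.28 and 6.91) all below chow females (8.14, 8.61 and 8.49), a log2 change of -1.51 (SE 0.44) that did not pass (adjusted p = 0.0897).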
